A study of Arabidopsis thaliana with 9 samples.

Results

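The shoot apical meristem of the Arabidopsis embryo is laid down between the 2 emerging cotyledons, and a small set of regulators marks its position. The levels of 9 such genes were followed in early heart stage embryos. They are the class I KNOX genes *STM* (AT1G62360), *KNAT1* (AT4G08150), *KNAT2* (AT1G70510) and *KNAT6* (AT1G23380), the cup-shaped cotyledon genes *CUC1* (AT3G15170), *CUC2* (AT5G53950) and *CUC3* (AT1G76420), and the receptor and ligand genes *CLV1* (AT1G75820) and *CLV3* (AT2G27250). They were listed by locus, with no threshold on their values but with earlier results of these data known, from the 33603 gene loci of the transcript index. All 9 had counts in every library and all 9 were among the 18585 genes tested.

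The embryos were of 3 genotypes, each with 3 libraries labelled as replicates, and all of them are in the Col-0 accession. Seeds of all 3 genotypes were stratified in the cold for 3 days. Col FRI embryos carry an active *FRIGIDA* (*FRI*) allele, and their mother plants were grown for 7 days and then vernalized at 4 °C for 6 weeks. The 35S::FCA embryos carry an *FCA* transgene driven by the viral 35S promoter, which is active in most plant cells. Col-0 embryos are the wild type, which lacks a functional *FRI*. No vernalization is given for 35S::FCA or Col-0 plants, so that the *FRI* allele and the cold treatment of the mother plants cannot be told apart in either comparison with Col FRI. Each library was made by Smart-seq2 from 20 dissected embryos, with 75-nt paired-end reads from 2 sequencing runs. It is not stated whether the embryos of a genotype came from separate plants, so p-values measure the spread between these libraries.

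KNOX proteins are homeodomain factors that keep meristem cells undifferentiated, in part by raising cytokinin and lowering gibberellin, and they act in pairs with BELL homeodomain proteins. CUC proteins are NAC-domain factors that mark the boundary between the cotyledons and are needed for *STM* to be switched on, while STM in turn helps to restrict and maintain CUC expression. CLV3 is a small secreted peptide of stem cells and CLV1 is a receptor kinase that perceives it, and together they limit WUS, the homeodomain factor that maintains the stem cells above it.

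The 9 transcripts differ in sequence features that bear on how they are measured and regulated. *CUC1* and *CUC2* are known targets of the microRNA miR164, which directs cleavage of their mRNAs, and *CUC3* is known to escape it. The mature miR164 sequences of the RefSeq annotation (TAIR10.1) are shown first, with the seed (bases 2 to 8) in capitals, followed by the windows of *CUC1* (chr3:5111137-5111157, plus strand) and *CUC2* (chr5:21902301-21902321, minus strand) that best match the miR164a complement, with mismatched bases in capitals.
ath-miR164a and ath-miR164b-5p: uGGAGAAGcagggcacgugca
ath-miR164c-5p: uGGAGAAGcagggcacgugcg
CUC1 site: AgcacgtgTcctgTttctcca
CUC2 site: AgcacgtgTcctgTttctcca
Both windows lay in the coding part of exon 3 of 3, were identical, and held 3 mismatches over 21 bases. The best window of *CUC3* held 9 mismatches, and those of the other 6 genes held 7 to 9. The site was also the core of the longest run shared by *CUC1* and *CUC2*, which was 22 bases long. Reads of the *MIR164A* and *MIR164B* precursors were at 0 in all 9 libraries. *MIR164C* was at 0 in the 3 Col FRI libraries, while 35S::FCA libraries held 2 to 6 and Col-0 libraries 1 to 4 estimated counts. These counts are near 0, and the precursors were not among the genes tested. Col FRI libraries also had the lowest median of total counts. This assay does not measure the mature miRNA.

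The KNOX genes share their homeobox, and reads from the most similar pair could in principle be split between them. The longest identical run between any 2 of the 9 genes was 41 bases, between *KNAT2* and *KNAT6*, in exon 5 of 5 in each. It encodes part of the recognition helix of the homeodomain. It is shown with the closest windows of *STM* and *KNAT1*, in which bases that differ from it are in capitals.
KNAT2 (chr1:26582032-26582072, plus strand): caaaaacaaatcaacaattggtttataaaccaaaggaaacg
KNAT6 (chr1:8297575-8297615, minus strand): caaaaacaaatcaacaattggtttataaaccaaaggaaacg
STM (chr1:23058923-23058963, minus strand): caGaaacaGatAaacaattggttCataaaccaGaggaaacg
KNAT1 (chr4:5148093-5148133, minus strand): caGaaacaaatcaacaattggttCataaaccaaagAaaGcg
*STM* differed from the shared run at 5 bases and *KNAT1* at 4. The run is shorter than a 75-nt read, and the estimated counts of *STM*, *KNAT1* and *KNAT2* were whole numbers in all 9 libraries, as were those of the CUC genes and *CLV1*. The counts of *KNAT6* and *CLV3*, summed over their models, lay within 0.0005 and 2e-05 of whole numbers. Reads divided between loci would have left fractions, and none were seen beyond these.

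Total estimated counts were 15166826 to 18768286 in Col FRI, 17996274 to 25847613 in 35S::FCA embryos and 20372634 to 24659741 in Col-0 libraries. Col-0 replicate 3 stood apart: nuclear genes other than ribosomal and small RNA entries took 52.2% of its TPM (transcript abundance scaled for length and depth), against 58.0 to 60.6% in Col FRI, 65.9 to 69.3% in 35S::FCA and 67.8 and 71.0% in the other Col-0 libraries. *FCA* had 4.06 to 4.22 TPM in 35S::FCA against 2.11 to 2.52 TPM in Col-0 embryos. The 3 Col FRI libraries differed from each other by little more than counting noise. The median chi-square per gene between 2 libraries, scaled so that 1 is counting noise, was 1.15 to 1.63 for Col FRI, 3.05 to 15.2 for 35S::FCA and 7.27 to 22.0 for Col-0 pairs. All comparisons with Col FRI are therefore also given with these libraries summed and counted as 1 sample, a fit that was added after seeing the data and in which that sample is assumed to vary like the other genotypes. Marker genes of other stages and tissues also differed. The 6 later embryo markers summed to 252 to 261 TPM in Col FRI, 90.4 to 94.2 TPM in 35S::FCA and 116 to 157 TPM in Col-0, and of the 5 tested, 4 were higher and 1 was lower in Col FRI against Col-0, 4 were higher in Col FRI against 35S::FCA, and 2 were lower in 35S::FCA against Col-0. The 7 endosperm markers summed to 2.80 to 3.13, 2.33 to 2.95 and 1.97 to 4.85 TPM in the same order of genotypes, with at most 1 marker at 0 in a library. The 6 seed coat markers summed to 10.5 to 12.5, 13.4 to 18.0 and 11.4 to 15.8 TPM, with up to 2 at 0 in a Col FRI library. The seed coat marker *PER36* had 0 to 1 count in Col FRI, 21 to 39 counts in 35S::FCA and 13 to 19 counts in Col-0 libraries, and was called as lower in Col FRI against both (edgeR adjusted p = 0.00155 against 35S::FCA and 0.00683 against Col-0). The 6 embryo identity markers summed to 234 to 241, 239 to 315 and 214 to 252 TPM, with 0 at 0, and 1 of them, *WOX9*, was higher in Col FRI against Col-0 by 0.51 on the log2 scale (edgeR adjusted p = 0.0169). Of the other seed coat, endosperm and identity markers tested, none was called by edgeR in any comparison. The part of these differences in the results that follow was not tested. In dissected embryos, fewer meristem or boundary cells and less RNA per cell cannot be told apart.

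All 9 genes were expressed at low to moderate levels. Levels per length (TPM) can be compared between genes. *KNAT6* was the most abundant of the 9 in each genotype, at 18.9 ± 0.388 TPM in Col FRI, 17.5 ± 2.18 TPM in 35S::FCA and 16.0 ± 0.781 TPM in Col-0 (SD, n = 3 each). In each genotype its 3 libraries lay above every library of the next gene, which was *CUC1*. The lowest gene was *CLV1* in Col FRI and 35S::FCA, at 1.96 ± 0.111 and 2.16 ± 0.421 TPM, and *KNAT1* in Col-0, at 1.75 ± 0.434 TPM (SD, n = 3 each). In Col FRI the order of the means was *KNAT6*, *CUC1*, *STM*, *CUC2*, *CLV3*, *KNAT2*, *KNAT1*, *CUC3* and *CLV1*, and the ranges of *CUC1* and *STM*, *STM* and *CUC2*, *CLV3* and *KNAT2*, and *KNAT2* and *KNAT1* overlapped. In 35S::FCA the order was *KNAT6*, *CUC1*, *CUC2*, *STM*, *CUC3*, *KNAT2*, *CLV3*, *KNAT1* and *CLV1*, and every neighbouring pair below *CUC1* overlapped. In Col-0 it was *KNAT6*, *CUC1*, *STM*, *CUC2*, *CLV3*, *KNAT2*, *CUC3*, *CLV1* and *KNAT1*, and all neighbours overlapped except *KNAT6* with *CUC1* and *CUC3* with *CLV1*. *KNAT1* thus ranked 7 of 9 in Col FRI, 8 in 35S::FCA and 9 in Col-0, while *CUC3* ranked 8, 5 and 7.

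The 9 genes together summed to 55.5 to 58.7 TPM in Col FRI, 49.8 to 71.1 TPM in 35S::FCA and 53.4 to 60.0 TPM in Col-0, so that the ranges of the 3 genotypes overlapped. The 4 KNOX genes summed to 34.0 to 35.4 TPM in Col FRI, 24.9 to 34.1 TPM in 35S::FCA and 28.8 to 30.3 TPM in Col-0. The 3 CUC genes summed to 15.01 to 16.1 TPM in Col FRI, 21.2 to 30.3 TPM in 35S::FCA and 17.5 to 24.5 TPM in Col-0. On this scale Col FRI libraries were the lowest 3 of the 9 for CUC genes, and for KNOX genes they lay above all Col-0 libraries. Neither held on TPM rescaled to nuclear genes without ribosomal and small RNA entries. There the KNOX genes summed to 56.2 to 61.0 in Col FRI and 42.2 to 58.1 in Col-0. The CUC genes summed to 24.8 to 27.8 in Col FRI and 24.6 to 46.9 in Col-0, so that both ranges overlapped. For KNOX genes, only Col-0 replicate 3 (58.1) reached the Col FRI range, against 42.2 and 42.4 in replicates 1 and 2. In 35S::FCA the sums were 37.8 to 49.3 for KNOX and 32.2 to 43.7 for CUC genes, and neither range overlapped that of Col FRI. The ratio of summed KNOX to summed CUC TPM within a library does not depend on this scaling, and was 2.20, 2.27 and 2.23 in Col FRI, 1.17, 1.13 and 1.22 in 35S::FCA and 1.72, 1.58 and 1.24 in Col-0. It was highest in the 3 Col FRI libraries, a difference that was not tested. Within the KNOX genes, *KNAT1* took 11.6 to 13.5% of the summed TPM in Col FRI, against 6.97 to 8.28% in 35S::FCA embryos and 4.50 to 7.13% in Col-0, and *KNAT6* took 54.2 to 54.7%, 57.0 to 61.0% and 49.98 to 57.9% in that order of genotypes. Within the CUC genes, *CUC3* took 13.98 to 14.9% in Col FRI, 16.8 to 22.0% in 35S::FCA embryos and 15.4 to 24.1% in Col-0.

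**Figure D1:**
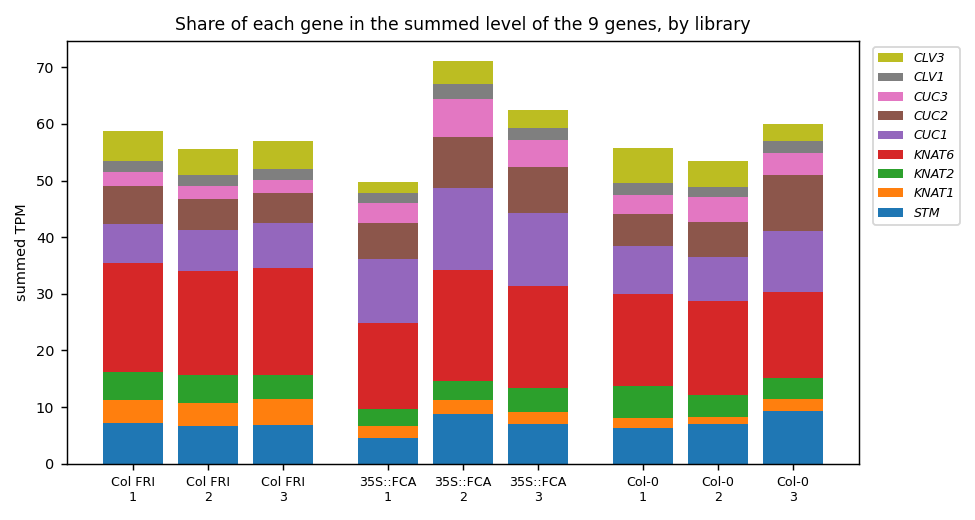
Stacked bars of the TPM of the 9 genes in each library (x axis, genotype and replicate; y axis, summed TPM). *KNAT6* is the thickest band in every bar, and the 3 Col FRI bars have a thicker *KNAT1* band and a thinner *CUC3* band than the other 6 bars.

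In Col FRI against Col-0 embryos, 3 of the 9 genes passed the test: *KNAT1* and *KNAT6* were higher and *CUC3* was lower. The question here is whether embryos with an active *FRI* from vernalized mother plants differ in meristem gene expression from Col-0 embryos. The allele and the cold treatment are compared together. Counts were compared with edgeR's quasi-likelihood test over all 9 libraries, and a gene was called at a Benjamini-Hochberg adjusted p under 0.05 over all genes tested. In the same test 13.3% of all genes were called, 6.04% of them as higher and 7.22% as lower, both as shares of the genes tested. The median log2 fold change of the 9 genes was -0.03, beside -0.01 over all genes. With the Col FRI libraries counted as 1 sample, 0 of the 9 were called, and 20 of all genes.

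*KNAT1*, also known as *BREVIPEDICELLUS*, acts in the meristem and in stem growth. It had 4.11, 4.11 and 4.67 TPM in the Col FRI libraries, against 1.79, 1.30 and 2.16 TPM in the Col-0 libraries. Every Col FRI library lay above every Col-0 library. The log2 fold change was 1.33 (SE 0.21, edgeR adjusted p = 0.00518), or 2.51-fold, and it remained past the threshold in all 18 alternative fits, with log2 fold changes of 0.96 to 1.62 and adjusted p of 2.53e-06 to 0.0342. With Col FRI counted as 1 sample it was 1.32 with an adjusted p of 0.229. *KNAT1* lies on chromosome 4, 4.88 Mb from *FRI*. The share of genes called on chromosome 4 was 26.2% of 237 genes within 1 Mb of *FRI* and 10.7% of 103 genes at 4 to 6 Mb, beside 13.3% of all genes. Whether position relative to *FRI* plays a part in the *KNAT1* difference was not tested.

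*KNAT6*, which acts with *STM* in forming the embryonic meristem and its boundary, had 19.2, 18.4 and 18.9 TPM in Col FRI against 16.3, 16.7 and 15.2 TPM in Col-0. The groups did not overlap, although the difference was small. Its log2 fold change was 0.28 (SE 0.07, edgeR adjusted p = 0.0309), or 1.22-fold. The call held in 6 of the 18 alternative fits. It was lost without Col-0 replicate 1 or 2, 35S::FCA replicate 3 or any one Col FRI library (adjusted p of 0.0575 to 0.117), without the filter, with the replicate block or with only these 2 genotypes (0.0568 to 0.0614), and in all 3 limma fits (0.363 to 0.392), and the adjusted p was 0.43 with Col FRI as 1 sample.

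*CUC3*, the member of its family that miR164 does not target, had 2.40, 2.24 and 2.16 TPM in Col FRI against 3.31, 4.39 and 3.78 TPM in Col-0. All Col FRI libraries were below all Col-0 libraries. It fell by 0.71 on the log2 scale (SE 0.19, edgeR adjusted p = 0.0382), to 0.611 of the Col-0 level. The fold change stayed between -0.86 and -0.56 over the alternatives, but 8 of 18 kept the call. It was lost without Col-0 replicate 2 or 3, 35S::FCA replicate 3 or any one Col FRI library (adjusted p of 0.0578 to 0.132), with the replicate block (0.0535), in the 3 limma fits (0.112 to 0.184) and with Col FRI as 1 sample (0.423).

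TPM did not overlap between Col FRI and Col-0 for 3 of the 9 genes, the same 3 that were called, on either TPM scale, while 26.5% of all genes tested did not overlap in TPM over all entries.

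The other 6 genes did not pass. *STM*, which maintains the meristem, had 7.11, 6.63 and 6.78 TPM in Col FRI and 6.32, 7.03 and 9.24 TPM in Col-0, and its log2 fold change was -0.11 (SE 0.21, edgeR adjusted p = 0.76). The high Col-0 value came from replicate 3, and without that library the fold change was 0.17. *CUC1* had 7.02, 7.20 and 7.88 TPM in Col FRI and 8.42, 7.75 and 10.9 TPM in Col-0, which overlapped, with a log2 fold change of -0.26 (SE 0.18, edgeR adjusted p = 0.358). *CUC2* had 6.67, 5.57 and 5.44 TPM in Col FRI and 5.73, 6.10 and 9.89 TPM in Col-0, with a log2 fold change of -0.28 (SE 0.25). For *CUC1* and *CUC2* the highest of the Col-0 libraries was again replicate 3, and without it their fold changes were 0.00 and 0.14 on the log2 scale. *KNAT2*, a close relative of *KNAT6*, had a log2 fold change of 0.14 (SE 0.16). *CLV1* had one of -0.03 (SE 0.13), with 1.85 to 2.07 TPM in Col FRI and 1.89 to 2.17 TPM in Col-0. *CLV3* had 5.34, 4.65 and 4.89 TPM in Col FRI and 6.22, 4.51 and 3.00 TPM in Col-0, with a log2 fold change of 0.17 (SE 0.26), and its Col-0 libraries spread on both sides of the Col FRI libraries.

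**Figure D2:**
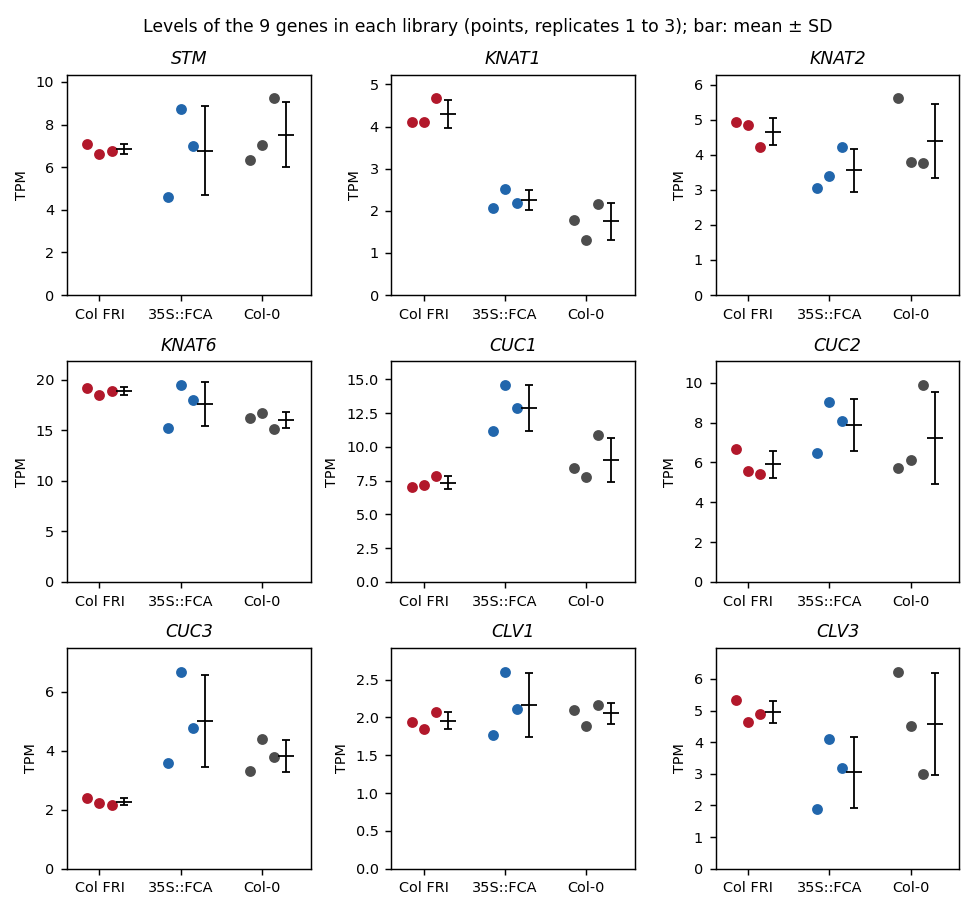
TPM of each of the 9 genes (one panel per gene, y axis from 0) in the 3 libraries of each genotype, with the mean ± SD beside the points. The 3 Col FRI points lie above all others for *KNAT1* and below all others for *CUC3*, while *STM* and *CLV1* points of the 3 genotypes overlap.

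In 35S::FCA against Col-0 embryos, edgeR called 0 of the 9 genes, where 1.52% of all genes were called, 0.49% as higher and 1.03% as lower. At an unadjusted edgeR p under 0.05 there were 3, namely *CLV3*, *CUC1* and *KNAT2*, where 3501 of the 18585 genes tested were. DESeq2 and limma also called 0 of the 9. The median log2 fold change of the 9 was -0.0031, beside -0.01 over all genes. The comparison asks whether more *FCA* changes meristem genes in the same wild-type background.

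*CUC1* had 11.2, 14.6 and 12.9 TPM in 35S::FCA against 8.42, 7.75 and 10.9 TPM in Col-0. It was the only 1 of the 9 genes whose TPM did not overlap, where 10.3% of all genes did not. Its log2 fold change was 0.41 (SE 0.17, edgeR adjusted p = 0.237). Without Col-0 replicate 3 it was 0.68 with an adjusted p of 0.00645, and over all 18 alternatives the adjusted p ranged up to 0.44. On TPM rescaled to nuclear genes without ribosomal and small RNA entries, the *CUC1* groups overlapped.

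*CLV3* had 1.88, 4.10 and 3.18 TPM in 35S::FCA against 6.22, 4.51 and 3.00 TPM in Col-0, from 20 to 53 counts in 35S::FCA and 35 to 87 counts in Col-0. The ranges overlapped, and the log2 fold change was -0.66 (SE 0.26, edgeR adjusted p = 0.206). *KNAT2* had 3.05, 3.39 and 4.23 TPM in 35S::FCA against 5.61, 3.80 and 3.76 TPM in Col-0, with a log2 fold change of -0.38 (SE 0.16, edgeR adjusted p = 0.239). The other 6 genes had log2 fold changes between -0.28 (*STM*) and 0.28 (*CUC3*), with edgeR adjusted p of 0.44 to 0.996.

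In Col FRI against 35S::FCA embryos, 3 of the 9 genes passed: *KNAT1* was higher, and *CUC3* and *CUC1* were lower. Here 12.9% of all genes were called, 7% as higher and 5.92% as lower. This comparison sets embryos with an activator of the floral repressor *FLC*, from vernalized mother plants, against embryos with more of a repressor of *FLC*. It shares its Col FRI and 35S::FCA libraries with the comparisons above, so its values are not independent of them. With Col FRI as 1 sample, 0 of the 9 genes were called, and 79 of all genes.

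*CUC3* had 2.40, 2.24 and 2.16 TPM in Col FRI against 3.57, 6.67 and 4.78 TPM in 35S::FCA. The groups did not overlap. *CUC3* fell by 0.99 on the log2 scale (SE 0.19, edgeR adjusted p = 0.00935), to 0.503 of the 35S::FCA level, and all 18 alternatives kept the call, with adjusted p of 0.00121 to 0.0487, while with Col FRI as 1 sample it was 0.246. *KNAT1* had 4.11, 4.11 and 4.67 TPM in Col FRI against 2.06, 2.52 and 2.19 TPM in 35S::FCA, again with no overlap. Its log2 fold change was 1.06 (SE 0.21, edgeR adjusted p = 0.0102), and 16 of 18 alternatives kept the call, the exceptions being without 35S::FCA replicate 3 (0.0541) and without Col FRI replicate 3 (0.0524), and with Col FRI as 1 sample it was 0.246.

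*CUC1* had 7.02, 7.20 and 7.88 TPM in Col FRI against 11.2, 14.6 and 12.9 TPM in 35S::FCA, so that the highest Col FRI library was below the lowest of 35S::FCA. It fell by 0.68 on the log2 scale (SE 0.18, edgeR adjusted p = 0.0343), and the 6 fits that left out a library of Col FRI or 35S::FCA lost the call, with adjusted p of 0.0589 to 0.123, as did Col FRI as 1 sample (0.397). *CUC2*, which carries the same miR164 site as *CUC1*, had 6.67, 5.57 and 5.44 TPM in Col FRI against 6.46, 9.05 and 8.06 TPM in 35S::FCA. These overlapped, and the log2 fold change was -0.28 (SE 0.25, edgeR adjusted p = 0.495). Whether *CUC1* and *CUC2* differ from each other in response was not tested.

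Of the other genes, *CLV3* had 5.34, 4.65 and 4.89 TPM in Col FRI against 1.88, 4.10 and 3.18 TPM in 35S::FCA, which did not overlap, with a log2 fold change of 0.83 (SE 0.26, edgeR adjusted p = 0.0646). *KNAT2* and *KNAT6* had log2 fold changes of 0.52 (SE 0.16, edgeR adjusted p = 0.0621) and 0.24 (SE 0.07, edgeR adjusted p = 0.0573). In an edgeR fit of these 2 genotypes alone, *CLV3*, *KNAT2* and *KNAT6* were called as well, with adjusted p of 0.0318, 0.0279 and 0.0131, so that 6 of the 9 passed. That fit also called more of all genes than the fit with all libraries, as given in the last section. *STM* and *CLV1* had log2 fold changes of 0.16 (SE 0.21) and -0.003 (SE 0.13). In all, 4 of the 9 genes did not overlap in TPM, where 36.1% of all genes did not. On TPM rescaled to nuclear genes there were 6, with *KNAT2* and *KNAT6* added. The share of all genes was not computed on that scale, so the 6 cannot be set against 36.1%.

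**Figure D3:**
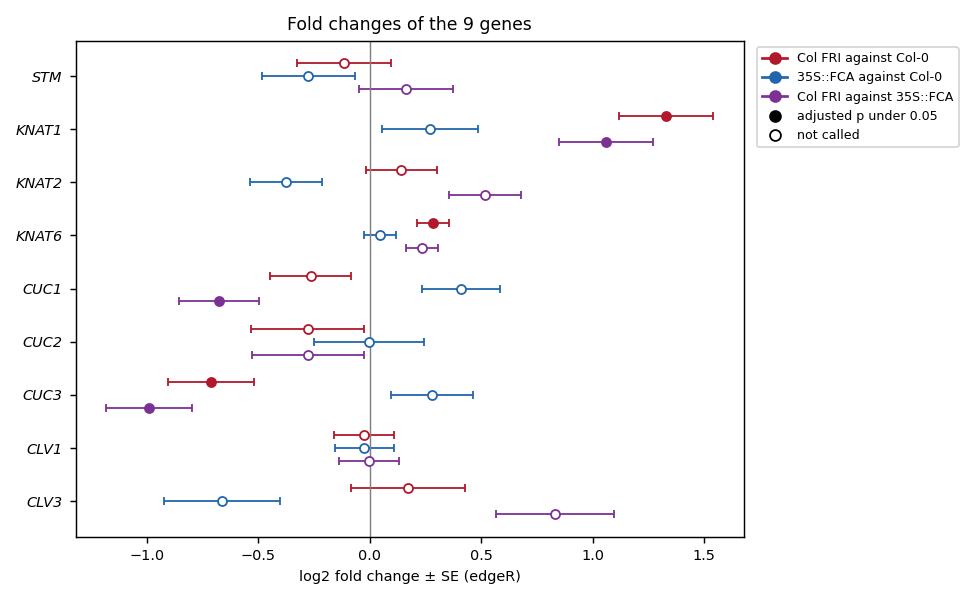
Log2 fold changes (x axis, edgeR, ± SE) of the 9 genes in the 3 comparisons, with filled points for adjusted p under 0.05. *KNAT1* reaches 1.33 and 1.06 in the comparisons of Col FRI with Col-0 and with 35S::FCA, *CUC3* reaches -0.71 and -0.99, and no 35S::FCA against Col-0 point is filled.

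Library by library, the centred log2 CPM (counts scaled to library size) show how closely the libraries of a genotype kept together. For *KNAT1* the 3 Col FRI libraries were at 0.74, 0.74 and 0.92 relative to the mean over the 9 libraries. Col-0 libraries were at -0.61, -1.02 and -0.03 for the same gene. In Col-0 replicate 3, *STM*, *CUC1* and *CUC2* stood at 0.62, 0.41 and 0.74, while the other Col-0 libraries were at -0.25 to -0.04, -0.34 to -0.28 and -0.37 to -0.23. In the same library *CLV3* was at -0.19, below 0.51 and 0.12 in the other Col-0 libraries. 35S::FCA replicate 1 had the lowest value of the 9 libraries for *STM* (-0.43) and for *CLV3* (-0.88).

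**Figure D4:**
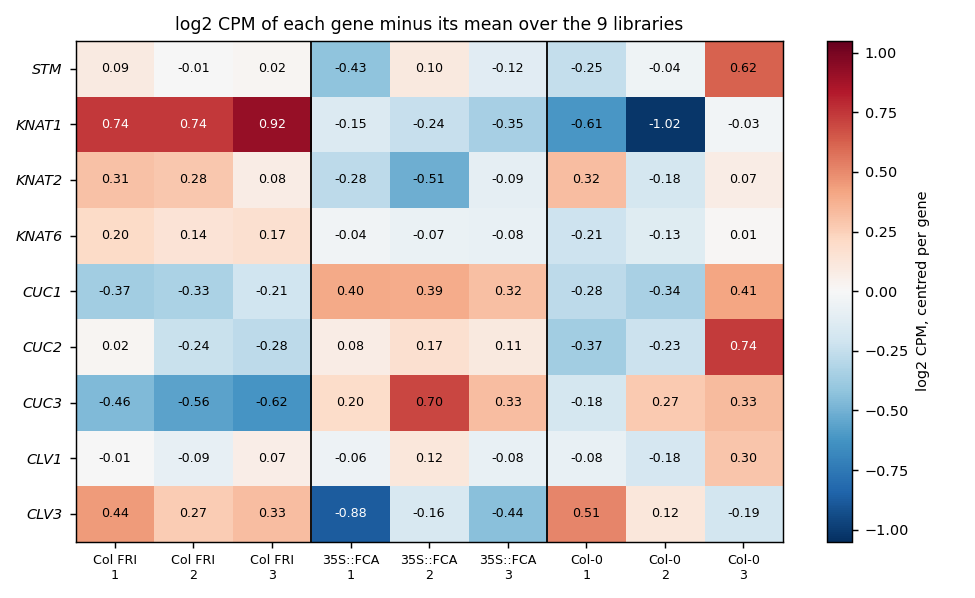
Log2 CPM of each gene minus its mean over the 9 libraries (rows, genes; columns, libraries by genotype; colour and printed number, log2 units). The Col FRI columns are positive for *KNAT1* (0.74 to 0.92) and negative for *CUC3* (-0.62 to -0.46), and the column of Col-0 replicate 3 has the highest values of *STM* (0.62) and *CUC2* (0.74).

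Likeness in pattern was measured as the root mean square (RMS) difference in centred log2 CPM over the 9 libraries. The genes nearest to *KNAT1* were AT1G28390 (0.154) and *TIL2* (0.181), those nearest to *CUC3* were *PAB5* (0.129) and *PYL4* (0.141), and those nearest to *KNAT6* were *ACLB-2* (0.0247) and AT1G47900 (0.0403). For *STM* they were *PUB12* (0.0896) and *GPRI1* (0.108), for *KNAT2* *PFC1* (0.0845) and AT3G60180 (0.106), for *CUC1* AT4G30993 (0.0909) and AT1G22250 (0.0912), for *CUC2* AT3G03550 (0.0937) and *SHM7* (0.110), for *CLV1* *GPDHC1* (0.0642) and *MAPR4* (0.0673), and for *CLV3* *TAPX* (0.0957) and AT2G24960 (0.155). None of the 9 was among the 2 nearest genes of another. Within the 9, the nearest to *CUC1* was *CUC2* (0.234) and the nearest to *CUC3* was *CUC1* (0.2905). These ranked 392 and 457 among all genes tested. The nearest to *CUC2*, *STM* and *KNAT6* was *CLV1* (0.231, 0.186 and 0.1645). The nearest to *KNAT1*, *KNAT2* and *CLV1* was *KNAT6* (0.502, 0.255 and 0.1645), and for *CLV3* it was *KNAT2* (0.312). The RMS difference between *KNAT1* and *CUC3* was 0.996. These distances describe 9 libraries of 3 genotypes and share their normalization.

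Isoforms were considered where a locus has more than 1 model in the index. *KNAT6* has 2, of 1351 bases (model 1) and 1306 bases (model 2) in the index. In the RefSeq annotation model 1 reaches further at both ends (chr1:8297241-8302651 against chr1:8297291-8302600). The shares below are therefore of whole models and not of 1 junction alone. The first splice junction also differs, by 6 bases at the start of exon 2 (junction region chr1:8302016-8302183, minus strand), shown in capitals in model 2.
KNAT6 model 2: gattgccaaaagAAACAGgtcggagcacca
KNAT6 model 1: gattgccaaaaggtcggagcacca
Model 2 took 9.75 to 10.9% of *KNAT6* TPM in Col FRI, 8.33 to 13.0% in 35S::FCA embryos and 11.7 to 16.7% in Col-0. Model 1 thus dominated in all 9 libraries. Isoform usage did not pass in any comparison (edgeR diffSpliceDGE, adjusted p = 1 in all 3), where 0.435% of 3679 genes were called in Col FRI against Col-0, 0.19% in 35S::FCA against Col-0 and 0.435% in Col FRI against 35S::FCA. *CLV3* has 3 models, and its reads were assigned almost wholly to the fully spliced one, at 100% in Col FRI, 90.7 to 100% in 35S::FCA embryos and 97.8 to 100% in Col-0. This model joins 3 exons across introns of 101 and 167 bases, at the following junctions, with the 2 bases at each junction in capitals (chr2:11665562-11665692 and chr2:11665348-11665544, minus strand).
CLV3 exon 1 to exon 2: ttcatgatgcttctGAtctcactcaagctc
CLV3 exon 2 to exon 3: ctttccaaccgcaaGAtgatgatgatgaaa
The unspliced model 1 of *CLV3* was at 0% in every library.

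The pathway around these genes was followed in 6 lists with 61 genes, of which 50 were tested. In Col FRI against Col-0 edgeR called 11 of the 50 as higher and 4 as lower, or 30% of those tested, where 13.3% of all genes were called. In Col FRI against 35S::FCA it called 11 as higher and 3 as lower, or 28%, where 12.9% of all genes were called. DESeq2 called similar numbers of the pathway genes, 14 and 15 in the comparisons of Col FRI with Col-0 and with 35S::FCA. Limma on TPM called 1 in the first under all 3 settings and 6 to 8 in the second. It also called fewer of all genes than edgeR in both comparisons, as given in the last section. Whether the pathway share differs from that of all genes was not tested in any of these fits. In 35S::FCA against Col-0 edgeR called 0, while DESeq2 called 1 and limma 0. At an unadjusted edgeR p under 0.05 there were 12 of the 50, where 3501 of the 18585 genes tested were. The median log2 fold changes of the 50 were -0.05, 0.14 and -0.09 in these comparisons, beside -0.01 over all genes in each. Without 1 of the Col FRI libraries the first count was 4 whichever was left out, and it was 9 without 35S::FCA replicate 3. The count against 35S::FCA was 6, 9 or 8 without Col FRI replicate 1, 2 or 3 and 7 without 35S::FCA replicate 3. With Col FRI as 1 sample 0 of the 50 were called in any comparison, and no pathway gene named here was called, with adjusted p of 0.059 (*GA2OX4* against 35S::FCA) or more. Of the 19 pathway genes named by rule, edgeR called 11 in Col FRI against Col-0, and all 11 lost the call in all 3 limma fits (adjusted p of 0.051 to 0.3598). It also called 11 against 35S::FCA, of which *PNY*, *BOP2*, *HAN*, *SYD*, *BAM3* and *CIK1* lost the call in all 3 limma fits (0.0592 to 0.365), *LSH3* lost it in limma without a filter (0.0667), and *LSH4*, *DRNL*, *WUS* and *GA2OX4* kept it in all 3.

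Among CLAVATA and WUSCHEL partners (17 of 20 tested), 3 were higher and 1 was lower in Col FRI against Col-0, and 4 were higher and 1 was lower in Col FRI against 35S::FCA. *WUS* (AT2G17950), the stem cell organizer that *CLV3* signalling limits, was the gene that was lower in both. It had 7, 4 and 8 counts in Col FRI, 21, 29 and 29 counts in 35S::FCA and 22, 29 and 20 counts in Col-0, or 0.165 to 0.300 TPM in Col FRI, 0.698 to 0.806 TPM in 35S::FCA and 0.559 to 0.778 TPM in Col-0. All Col FRI libraries were below all others. The log2 fold change was -1.43 (SE 0.34, edgeR adjusted p = 0.025) against Col-0 and -1.54 (SE 0.34, edgeR adjusted p = 0.0161) against 35S::FCA. In all, 8 of 18 alternatives kept the first call and 15 of 18 kept the second, with adjusted p of 0.0516 in DESeq2, 0.0535 with the replicate block and 0.0549 to 0.114 for the first without Col-0 replicate 2, 35S::FCA replicate 3 or any one Col FRI library, and of 0.0611 to 0.0842 for the second without 35S::FCA replicate 3 or Col FRI replicate 1 or 2.

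Other partners were higher in Col FRI or did not pass. *CIK1*, a co-receptor kinase of the *CLV3* pathway, had 8.46 ± 0.505 TPM in Col FRI, 5.46 ± 0.222 TPM in 35S::FCA and 6.09 ± 1.35 TPM in Col-0 (SD, n = 3 each), with log2 fold changes of 0.54 against Col-0 and 0.76 against 35S::FCA (edgeR adjusted p = 0.0124 and 0.00211). The first was lost without Col FRI replicate 1 or 2 (0.0627 and 0.0597). *BAM3*, a receptor kinase related to *CLV1*, had a log2 fold change of 0.88 and an edgeR adjusted p of 0.0106 against 35S::FCA (0.0585 without Col FRI replicate 1), and one of 0.31 against Col-0 (edgeR adjusted p = 0.255). *ULT1*, a nuclear factor that limits meristem size, was higher than in Col-0 by 0.41 (edgeR adjusted p = 0.0127, and 0.0597 and 0.0682 without Col FRI replicate 2 or 3), and had a log2 fold change of 0.15 against 35S::FCA (edgeR adjusted p = 0.24). The receptor-like protein *CLV2* and the pseudokinase *CRN*, which work as a pair, had log2 fold changes of -0.21 and 0.23 against Col-0 (edgeR adjusted p = 0.391 and 0.115) and of -0.22 and 0.28 against 35S::FCA (edgeR adjusted p = 0.377 and 0.0714).

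Among CUC regulators and boundary genes (14 of 19 tested), 5 were higher and 3 (*TCP10*, *TCP4* and *LAS*) were lower in Col FRI against Col-0, and 4 were higher and 1 was lower against 35S::FCA. *LSH3* and *LSH4*, boundary genes known as targets of *CUC1*, were higher in both comparisons with Col FRI, in neither of which *CUC1* was higher. *LSH4* had 38.8 ± 0.693 TPM in Col FRI, 25.9 ± 4.52 TPM in 35S::FCA and 28.0 ± 1.57 TPM in Col-0 (SD, n = 3 each), and log2 fold changes of 0.50 and 0.72 against Col-0 and 35S::FCA (edgeR adjusted p = 0.0191 and 0.00323). *LSH3* had log2 fold changes of 0.64 and 1.20 in the same order (edgeR adjusted p = 0.0333 and 0.0022). Against Col-0 both were lost without Col-0 replicate 1 or any one Col FRI library (0.0528 to 0.121), among other fits. In all, 10 of 18 alternatives kept that call for *LSH3* and 11 of 18 for *LSH4*. *HAN*, a GATA factor of organ boundaries and embryo patterning, was higher by 0.63 and 0.46 (edgeR adjusted p = 0.00345 and 0.0103, and 0.119 to 0.159 and 0.297 to 0.329 in limma, the second 0.0568 without 35S::FCA replicate 3). *SYD*, a chromatin remodeller known to act on *CUC2* and *WUS*, was higher by 0.43 and 0.33 (edgeR adjusted p = 0.0197 and 0.0474). Both calls were lost without Col-0 replicate 1 (0.0606 and 0.0556) or any one Col FRI library (0.0725 to 0.146). The first was also lost without Col-0 replicate 2 (0.0505) and the second without 35S::FCA replicate 2 or 3 (0.139 and 0.16). In all, 10 of 18 alternatives kept the first call and 8 of 18 the second.

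Among the genes that were lower was *TCP10*, a TCP factor that restrains CUC expression, with 0.865 ± 0.150 TPM in Col FRI against 1.88 ± 0.317 TPM in Col-0 (SD, n = 3 each), a log2 fold change of -1.09 (edgeR adjusted p = 0.0162, and 0.0744 and 0.0777 without Col FRI replicate 1 or 3). Against 35S::FCA its log2 fold change was -0.46 (edgeR adjusted p = 0.219). *DRNL*, an AP2 factor of cotyledon development, had 11.9 ± 0.638 TPM in Col FRI against 23.2 ± 3.11 TPM in 35S::FCA (SD, n = 3 each) and fell by 0.83 on the log2 scale (edgeR adjusted p = 0.0118, and 0.0519 and 0.0595 without Col FRI replicate 1 or 3), while its log2 fold change against Col-0 was -0.51 (edgeR adjusted p = 0.0749). *JLO*, singled out after its values were seen because it lies 0.182 Mb from *FRI*, had 23 to 43 counts in Col FRI libraries, 5 to 20 counts in 35S::FCA libraries and 8 to 16 counts in Col-0 libraries, with a log2 fold change of 2.11 against Col-0 (SE 0.56, edgeR adjusted p = 0.0356). That call was lost without Col-0 replicate 1 or 2, 35S::FCA replicate 3 or any one Col FRI library (0.0641 to 0.132), and in limma on log2(TPM + 0.1) with and without a filter (0.058 and 0.103). Against 35S::FCA the log2 fold change of *JLO* was 1.81 (SE 0.55, edgeR adjusted p = 0.0561), which was not called.

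Among KNOX repressors (3 of 4 tested), 2 were higher in Col FRI against Col-0. *AS1*, a MYB factor that keeps *KNAT1*, *KNAT2* and *KNAT6* off in leaves, had 62.8 ± 0.617 TPM in Col FRI, 59.6 ± 14.5 TPM in 35S::FCA and 46.0 ± 2.96 TPM in Col-0 (SD, n = 3 each). Its log2 fold change was 0.48 against Col-0 (SE 0.13, edgeR adjusted p = 0.0367) and 0.22 against 35S::FCA (edgeR adjusted p = 0.275), and the first call was lost without Col-0 replicate 1 or 2, 35S::FCA replicate 3 or any one Col FRI library (0.0624 to 0.118). *AS2*, its LOB-domain partner, had -0.41 and -0.05 (edgeR adjusted p = 0.29 and 0.908). *BOP2*, a co-regulator in lateral organs, was higher by 0.51 and 0.61 (edgeR adjusted p = 0.00918 and 0.00313, and 0.2501 to 0.328 and 0.1797 to 0.2304 in limma). *KNAT1*, *AS1* and *BOP2* were thus all higher in Col FRI against Col-0.

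BELL partners (5 of 6 tested) had 0 called by edgeR in Col FRI against Col-0, while DESeq2 called 1 and limma 0. Of the 5, 4 were at an unadjusted edgeR p under 0.05, where 5570 of the 18585 genes tested were. *PNY*, the best-known partner of *STM* and *KNAT1*, had 6.60 ± 0.290 TPM in Col FRI, 5.09 ± 1.71 TPM in 35S::FCA and 4.76 ± 0.578 TPM in Col-0 (SD, n = 3 each). The log2 fold change of *PNY* was 0.52 against Col-0 (SE 0.15, edgeR adjusted p = 0.0503) and 0.53 against 35S::FCA (SE 0.15, edgeR adjusted p = 0.0486). The call against 35S::FCA was kept by 9 of 18 alternatives. Among others, it was lost without 35S::FCA replicate 1 or 3 or any one Col FRI library (0.0738 to 0.153). The *PNY* relatives *PNF* and *ATH1* had log2 fold changes of -1.28 and -0.90 against Col-0 (edgeR adjusted p = 0.0758 and 0.0973), from 9 to 19 and 31 to 47 counts in Col FRI and 30 to 60 and 71 to 124 counts in Col-0. Against 35S::FCA they had -0.55 and 0.16 (edgeR adjusted p = 0.425 and 0.792).

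Of the 5 other KNOX genes, all tested, 0 were called in any comparison by edgeR, DESeq2 or limma. At an unadjusted edgeR p under 0.05 there were 3, 2 and 1 in Col FRI against Col-0, 35S::FCA against Col-0 and Col FRI against 35S::FCA. Of the 18585 genes tested there were 5570, 3501 and 5515 in the same order. Of the hormone genes known to respond to KNOX proteins (6 of 7 tested), 1 was higher and 0 were lower in Col FRI against Col-0. Against 35S::FCA, 1 was higher and 1 was lower. The lower gene was *LOG7*, with a log2 fold change of -0.59 (edgeR adjusted p = 0.015), and -0.28 against Col-0 (edgeR adjusted p = 0.183). The gene that was higher in both comparisons was *GA2OX4*, which inactivates gibberellin. It had 17.3, 13.6 and 16.0 TPM in Col FRI, 5.29, 9.42 and 8.72 TPM in 35S::FCA and 8.97, 10.2 and 7.36 TPM in Col-0, with no overlap between Col FRI and the other libraries. The log2 fold change was 0.87 against Col-0 (SE 0.14, edgeR adjusted p = 0.00494, and 0.0759 to 0.137 in limma) and 1.14 against 35S::FCA (SE 0.14, edgeR adjusted p = 0.000887). Its relative *GA2OX2* was not called in any comparison.

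**Figure D5:**
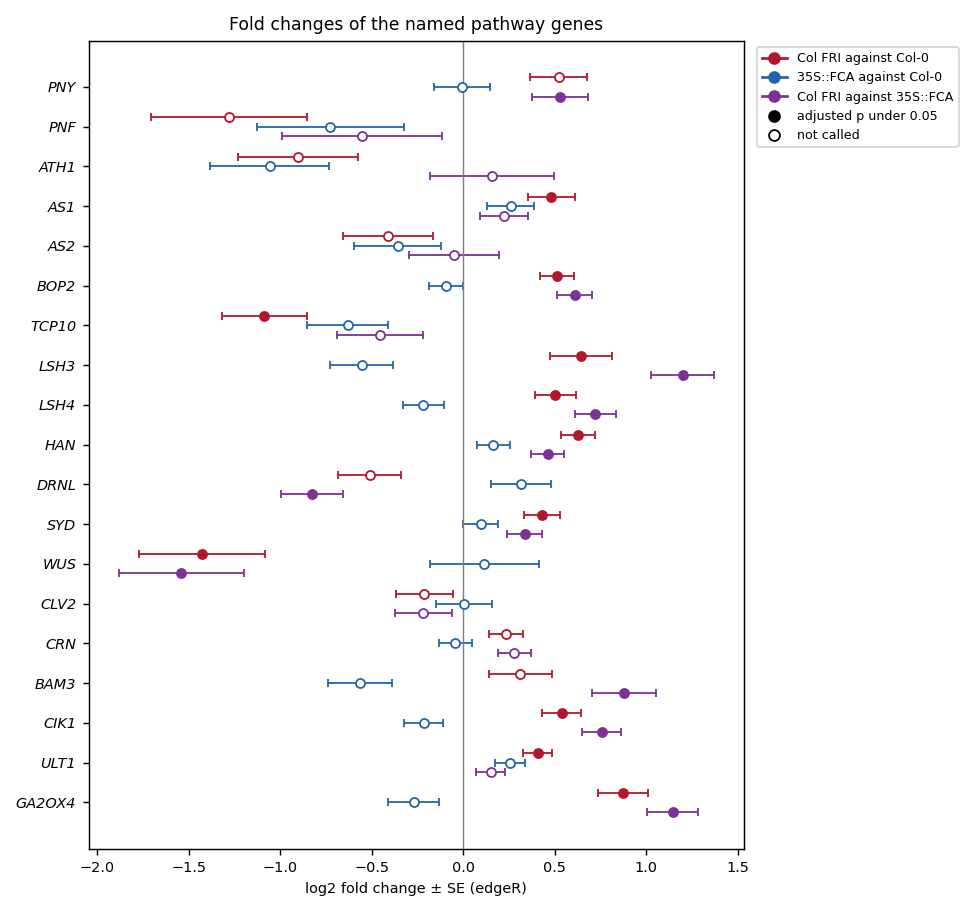
Log2 fold changes (x axis, edgeR, ± SE) of the 19 named pathway genes in the 3 comparisons, with filled points for adjusted p under 0.05. *WUS* lies lowest among the filled points (-1.43 and -1.54), *LSH3* and *GA2OX4* reach 1.20 and 1.14 in Col FRI against 35S::FCA, and no point of 35S::FCA against Col-0 is filled.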

How the data were processed

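The authors aligned 75-nt paired-end Smart-seq2 reads to TAIR10 transcript models with kallisto (version not given in the sources used here) and deposited an estimated count and a TPM value for each of 41683 models and each library. Estimated counts were summed per locus and rounded, and TPM were summed per locus. Counts were tested with edgeR 4.0.16 in R 4.3.3 (filterByExpr, TMM, quasi-likelihood test, genotype as factor, all 9 libraries), with calls at a Benjamini-Hochberg adjusted p under 0.05. Alternatives used DESeq2 1.42.0, limma 3.58.1 on log2(TPM + 0.1) or log2(TPM + 1) with TPM of at least 0.5 in 3 libraries, no filter, other scaling, the replicate number as block, thresholds of adjusted p under 0.001 with more than 2-fold change, and fits without each library. Isoform usage was tested with edgeR diffSpliceDGE. The tests were checked on simulated data with the same spread in every library, well-counted genes and larger changes than most reported here. That check does not cover the unequal spread, small changes or low counts of these data. Sequences and positions are from the RefSeq annotation of TAIR10.1. Centred CPM used a prior count of 2. The 9 genes and all lists were chosen with earlier results of these data known. Of pathway genes, *WUS*, *PNY*, *PNF*, *ATH1*, *AS1*, *AS2*, *CLV2* and *CRN* were named whatever their values, with up to 8 called genes per comparison by smallest p, and for each of the 9 genes the 2 with the most similar pattern.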

Additional observations from a re-analysis of the deposited data

How the results depend on the processing

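Without each library in turn, genes called numbered 611 to 4139 (2464 with all libraries) in Col FRI against Col-0, 18 to 1608 (283) in 35S::FCA against Col-0 and 960 to 3724 (2402) in Col FRI against 35S::FCA. Of the 9 meristem genes, 1 to 3, 0 to 1 and 1 to 5 were called, and of the pathway genes 4 to 18, 0 to 2 and 6 to 19. Limma on log2(TPM + 0.1), on log2(TPM + 1) and without a filter called 426, 416 and 396 genes in Col FRI against Col-0, 55, 82 and 51 in 35S::FCA against Col-0 and 883, 916 and 979 in Col FRI against 35S::FCA. It called 1 meristem gene and 1 pathway gene in the first comparison under all 3 settings, and 7, 8 and 6 pathway genes in the last. At an adjusted p under 0.001 and more than 2-fold change, 34, 1 and 104 genes were called, 0 of the 9 in each, and 0, 0 and 1 pathway genes. In 35S::FCA against Col-0, DESeq2 called 673 genes, 1 of them a pathway gene, and edgeR without a filter 454. With only the 2 genotypes compared, 8 genes were called in that comparison and 4478 in Col FRI against 35S::FCA, 6 of the 9 among them. With Col FRI as 1 sample, 20, 8 and 79 genes were called and 0 of the meristem and pathway genes. The cause of these shifts was not tested.

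Deviations of same-numbered libraries correlated at -0.113 to 0.2655 and exceeded 0.1 in 2 of 9 pairs. Both were pairs of Col-0 with 35S::FCA (0.2189 and 0.2655). Pairs of these genotypes with differing numbers ran from -0.326 to 0.2694. Same-numbered pairs with Col FRI lay between -0.034 and 0.0174, but Col FRI libraries differed by little more than counting noise. The check therefore cannot decide whether replicate numbers pair the libraries. With the replicate number as a block, 1762, 97 and 1965 genes were called, and 1, 0 and 3 of the 9, *KNAT1* alone in Col FRI against Col-0. Summed TPM of the 9 genes, scaled to nuclear genes, were 95.9 in Col FRI, 89.7 in 35S::FCA and 90.7 in Col-0, as against 57.1, 61.1 and 56.4 over all entries.

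Signs reversed for uncalled values only. On leaving out a library, the log2 fold changes in Col FRI against Col-0 ran from -0.29 to 0.17 for *STM*, -0.40 to 0.00095 for *CUC1*, -0.48 to 0.14 for *CUC2* and -0.12 to 0.12 for *CLV1*, the highest in each case without Col-0 replicate 3. In 35S::FCA against Col-0 they ran from -0.45 to 0.019 for *STM*, -0.0053 to 0.11 for *KNAT6*, -0.21 to 0.42 for *CUC2*, -0.12 to 0.12 for *CLV1*, -0.16 to 0.14 for *PNY*, -0.038 to 0.22 for *WUS*, -0.16 to 0.18 for *CLV2* and -0.12 to 0.021 for *CRN*. There *CUC2* was 0.0012 with DESeq2 size factors, 0.036 with the replicate block and 0.15, 0.13 and 0.15 in the limma fits, which gave 0.055, 0.042 and 0.055 for *CLV1*, 0.045, 0.045 and 0.045 for *PNY* and 0.023, 0.020 and 0.023 for *CRN*, and *CLV2* was -0.00030 with length-scaled counts. In Col FRI against 35S::FCA they ran from -0.044 to 0.064 for *CLV1* and -0.14 to 0.028 for *AS2*. Counting error is widest for genes with few counts, such as *WUS* (4 to 8 in Col FRI).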
